A study of Mus musculus with 10 samples.

Results

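The cytosolic ribosomal protein genes are those whose products make up the large and small subunits of the cytosolic ribosome. They were taken by symbol: every gene of the deposited table whose symbol begins with Rpl or Rps followed by a number, together with Rplp0, Rplp1, Rplp2 and Rpsa. Left out were 9 rows of Rps6k kinases, 1 row of the binding protein Rps19bp1 and 289 rows named as pseudogenes. This gave 92 genes of 55359 in the table, 55 of the large and 37 of the small subunit. Of the 92, 7 had no coding transcript in GENCODE M21, and 5 of these 7 were among the genes tested. Not every gene taken by symbol need therefore encode a protein of the ribosome. Kidney RNA of male mice was compared between 5 libraries after sham surgery (sham) and 5 libraries after kidney ischaemia-reperfusion injury surgery (IRI), in which ischaemia of 30 min was followed by reperfusion of 24 h. Neither group carries a named allele or drug. The labels give no strain, age, diet or sham interval, and do not say whether each library came from a separate mouse. The p-values below therefore measure the spread between these libraries, which may be technical.

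These proteins fold around the ribosomal RNA, and nearly all of them are needed in equal number, so that cells make them in step. The large subunit forms the peptide bond and holds the exit tunnel and the stalk that recruits translation factors, while the small subunit binds and decodes the messenger RNA. The messengers of ribosomal proteins are known as TOP transcripts, which begin with C followed by a tract of C and T, and whose translation is set by mTORC1. In the mammalian genome these genes have left very many processed copies, so that reads from one of them can fit several places. In the kidney the cells of the proximal tubule make up much of the tissue and are the most sensitive to ischaemia.

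A TOP tract lies at the start of the transcript, and the windows below show that place for a selection of members: Rpl12, Rpl10, Rpl10a and Rps12 of the largest rises, Rplp0 and Rplp2 of the stalk, Rpl15, Rpl35a and Rps27l, which were called lower, Rpl27a for its long run, and the relatives of Rps27l and of Rpl22. Each window runs from 10 bases before a RefSeq transcript start to 20 bases from it, on the transcribed strand, with positions in RefSeq's build GRCm38.p6, which is not the build of the deposited table. Capitals mark the longest unbroken run of C and T in the window, which may lie before the start, and of several starts of a gene the one with the longest run is shown.
Rpl12 (chr2:32961702-32961731, plus strand): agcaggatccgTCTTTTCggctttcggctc
Rpl10 (chrX:74270806-74270835, plus strand): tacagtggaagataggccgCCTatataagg
Rpl10a (chr17:28328461-28328490, plus strand): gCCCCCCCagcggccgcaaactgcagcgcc
Rps12 (chr10:23787190-23787219, minus strand): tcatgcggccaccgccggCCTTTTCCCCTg
Rplp0 (chr5:115559457-115559486, plus strand): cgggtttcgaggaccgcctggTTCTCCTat
Rplp2 (chr7:141447641-141447670, plus strand): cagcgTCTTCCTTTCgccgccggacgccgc
Rpl15 (chr14:18270967-18270996, minus strand): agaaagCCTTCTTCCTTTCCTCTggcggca
Rpl35a (chr16:33056472-33056501, plus strand): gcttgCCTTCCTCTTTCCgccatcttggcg
Rpl27a (chr7:109519185-109519214, plus strand): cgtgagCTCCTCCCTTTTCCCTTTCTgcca
Rps27 (chr3:90213629-90213658, minus strand): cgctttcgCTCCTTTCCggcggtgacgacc
Rps27rt (chr9:114982720-114982749, minus strand): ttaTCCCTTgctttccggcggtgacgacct
Rps27l (chr9:66946076-66946105, plus strand): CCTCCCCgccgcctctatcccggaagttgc
Rpl22 (chr4:152324426-152324455, plus strand): CTTCTggaatgttccagctcccactgacag
Rpl22l1 (chr3:28805498-28805527, plus strand): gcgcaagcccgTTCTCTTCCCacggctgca
The runs differ widely between members. Those of Rpl27a, Rpl15 and Rpl35a cover 20, 17 and 13 bases, and that of Rpl10 covers 3. The starts are RefSeq's annotation, and those in use in these libraries were not measured. A short run therefore does not show that a member lacks a TOP tract. In Rpl10a, Rps27rt, Rps27l and Rpl22 the marked run lies wholly before the start, so it is not part of the transcript that begins there. Rpl35a has 3 starts, with longest runs of 13, 5 and 4 bases. RefSeq windows were matched for 79 starts of 67 members. A run of C and T of at least 8 bases lay in 25 of these starts (31.6%), against 11.2% of 32851 starts of all genes. The letters CCGGAAGT, on either strand of the promoter sequence that RefSeq's table gives around each start, were found at 12 starts (15.2%), against 3.89% of all starts. The letters TATAAA, on the transcribed strand between 40 and 15 bases before the start, were found at 1 start (1.27%), against 1.99%.

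Levels are given in FPKM, the authors' count divided by the gene's exonic length and the library's total, and fold changes come from edgeR on the counts. FPKM rests on library totals, while the fold changes rest on TMM factors, which estimate the scale from genes of moderate change. TMM factors were 0.896 to 0.940 in sham and 0.998 to 1.14 in IRI, so a ratio of FPKM means exceeds the printed fold change. A gene was called at an adjusted p under 0.05 (quasi-likelihood test, Benjamini-Hochberg over 13324 genes that reached 1 FPKM in at least 5 libraries). Library totals were 13147899 to 18603272 counts. Proximal tubule markers summed to 2504 to 3045 FPKM in sham and 245 to 1077 in IRI (10 of 10 lower), and injured tubule markers to 324 to 420 in sham and 17202 to 27879 in IRI (7 of 7 higher). The sham libraries thus held the defining genes of kidney tubule, and the sum of the proximal tubule markers was lower in every IRI library than in any sham library. Of the injured tubule sums, Spp1 alone made up 315 to 377 FPKM in sham and 15339 to 24928 in IRI. IRI replicate 1 held 2.31% of its counts in mitochondrial ribosomal RNA, against 0.214% to 0.450% in the other IRI libraries.

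Ribosomal protein genes took a larger share of the counts in every IRI library than in any sham library. The share was 1.26%, 1.19%, 1.16%, 1.34% and 1.498% in the sham libraries by replicate, and 1.58%, 2.05%, 2.13%, 2.04% and 1.89% in the IRI libraries. The means were 1.29% ± 0.137 and 1.94% ± 0.218 (SD, n = 5 each). Sham replicate 5 was the highest of the sham libraries and IRI replicate 1 the lowest of the IRI libraries, so that the groups came nearest to each other through this pair. Sham replicate 5 was the highest in its group for 60 of the 88 members tested, and IRI replicate 1 the lowest in its group for 65. Both subunits followed the same pattern: large subunit genes held 0.624% to 0.815% of sham counts and 0.882% to 1.16% of IRI counts, and small subunit genes 0.531% to 0.683% and 0.700% to 0.973%. Counts in large subunit genes were 1.16 to 1.21 times those in small subunit genes in sham and 1.19 to 1.26 times in IRI, ranges that overlap. Summed FPKM of the large subunit was 1.22 to 1.351 times that of the small in sham and 1.36 to 1.41 times in IRI, ranges that do not. The gap was narrow, between sham replicate 4 (1.351) and IRI replicate 4 (1.360), and single genes weigh in these sums. Rplp0 alone held 354 of 5018 FPKM of the large subunit in sham replicate 4 and 687 of 7644 in IRI replicate 4. The difference in this ratio was not tested.

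**Figure D1:**
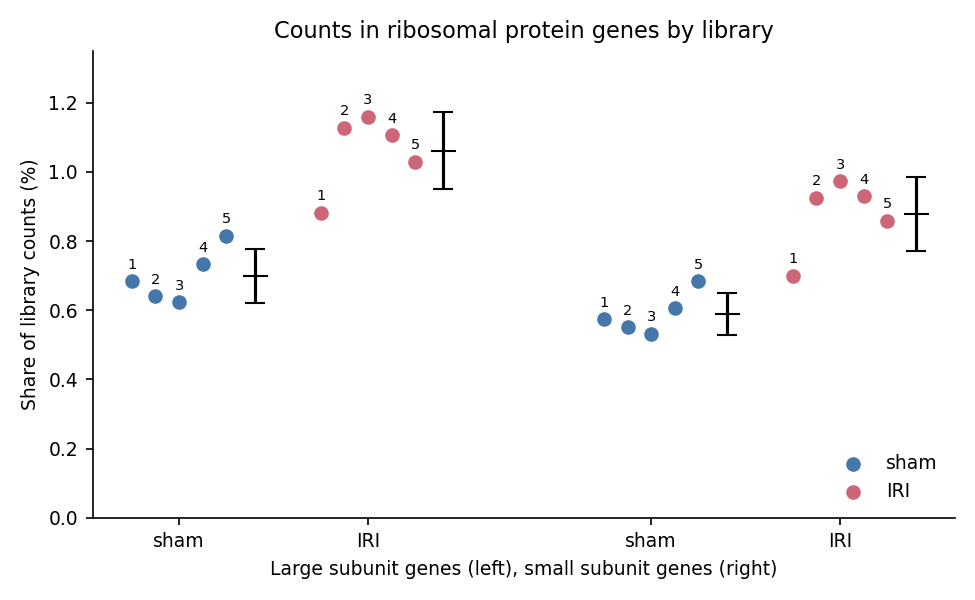
Share of each library's counts (%, y axis) in large subunit genes (left pair) and small subunit genes (right pair), by group on the x axis, with 1 point per library numbered by replicate and the mean ± SD as a bar beside them (n = 5). Every IRI library lies above every sham library for both subunits, and sham 5 (0.815% and 0.683%) and IRI 1 (0.882% and 0.700%) are the nearest pair.

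Of the 92 genes, 88 were tested. The other 4 lay below the filter in both groups. Rpl10l, a retrogene known from testis, and Rps12l1 had 0 counts in all libraries. Rpl39l, known from testis, stood at 0 to 0.32 FPKM in sham and 0 to 0.36 in IRI, and Rpl32l at 0.15 to 0.84 and 0 to 1.08. Of the 88, 47 were called higher in IRI (53.4%), 3 lower and 38 in neither direction. Over all 13324 genes tested, 34.5% were called higher and 32.4% lower, 66.9% in either direction. The share called higher among these members was thus above the background and the share called lower was far below it. The median log2 fold change was 0.35 over the members, against 0.05 over all genes, and 79 of 88 fold changes were above 0. In FPKM the groups did not overlap for 46 members, for 45 of which IRI was the higher, while 36.7% of all tested genes had no overlap with IRI higher and 18.6% with IRI lower.

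The change was thus wide but small: the middle members, from the lower to the upper quartile, lay between 0.19 and 0.50 on the log2 scale. In the large subunit 26 of 52 tested genes were called higher and 2 lower (median 0.28), and in the small subunit 21 of 36 higher and 1 lower (median 0.36). The difference between the subunits was not tested. Of the 47 higher calls, 38 held whichever of the 10 libraries was left out. Without IRI replicate 1 the members called were 55 higher and 2 lower, and without sham replicate 5 they were 58 higher and 2 lower.

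The scale chosen for the libraries bears directly on these counts. With library totals in place of TMM factors, the log2 fold changes of all genes moved up by a median of 0.25, and 76 members were called higher and 1 lower, against a background of 47.4% higher, 23.6% lower and 71% in either direction. The members' median lay 0.30 above that of all genes with TMM and also with library totals, a distance that a common shift of all genes leaves as it is. In kidney tissue, fewer cells of a type and less RNA per cell cannot be told apart, and the markers of proximal tubule and injured tubule moved with the group as given above. Their part in the rise of the ribosomal protein genes was not tested.

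**Figure D2:**
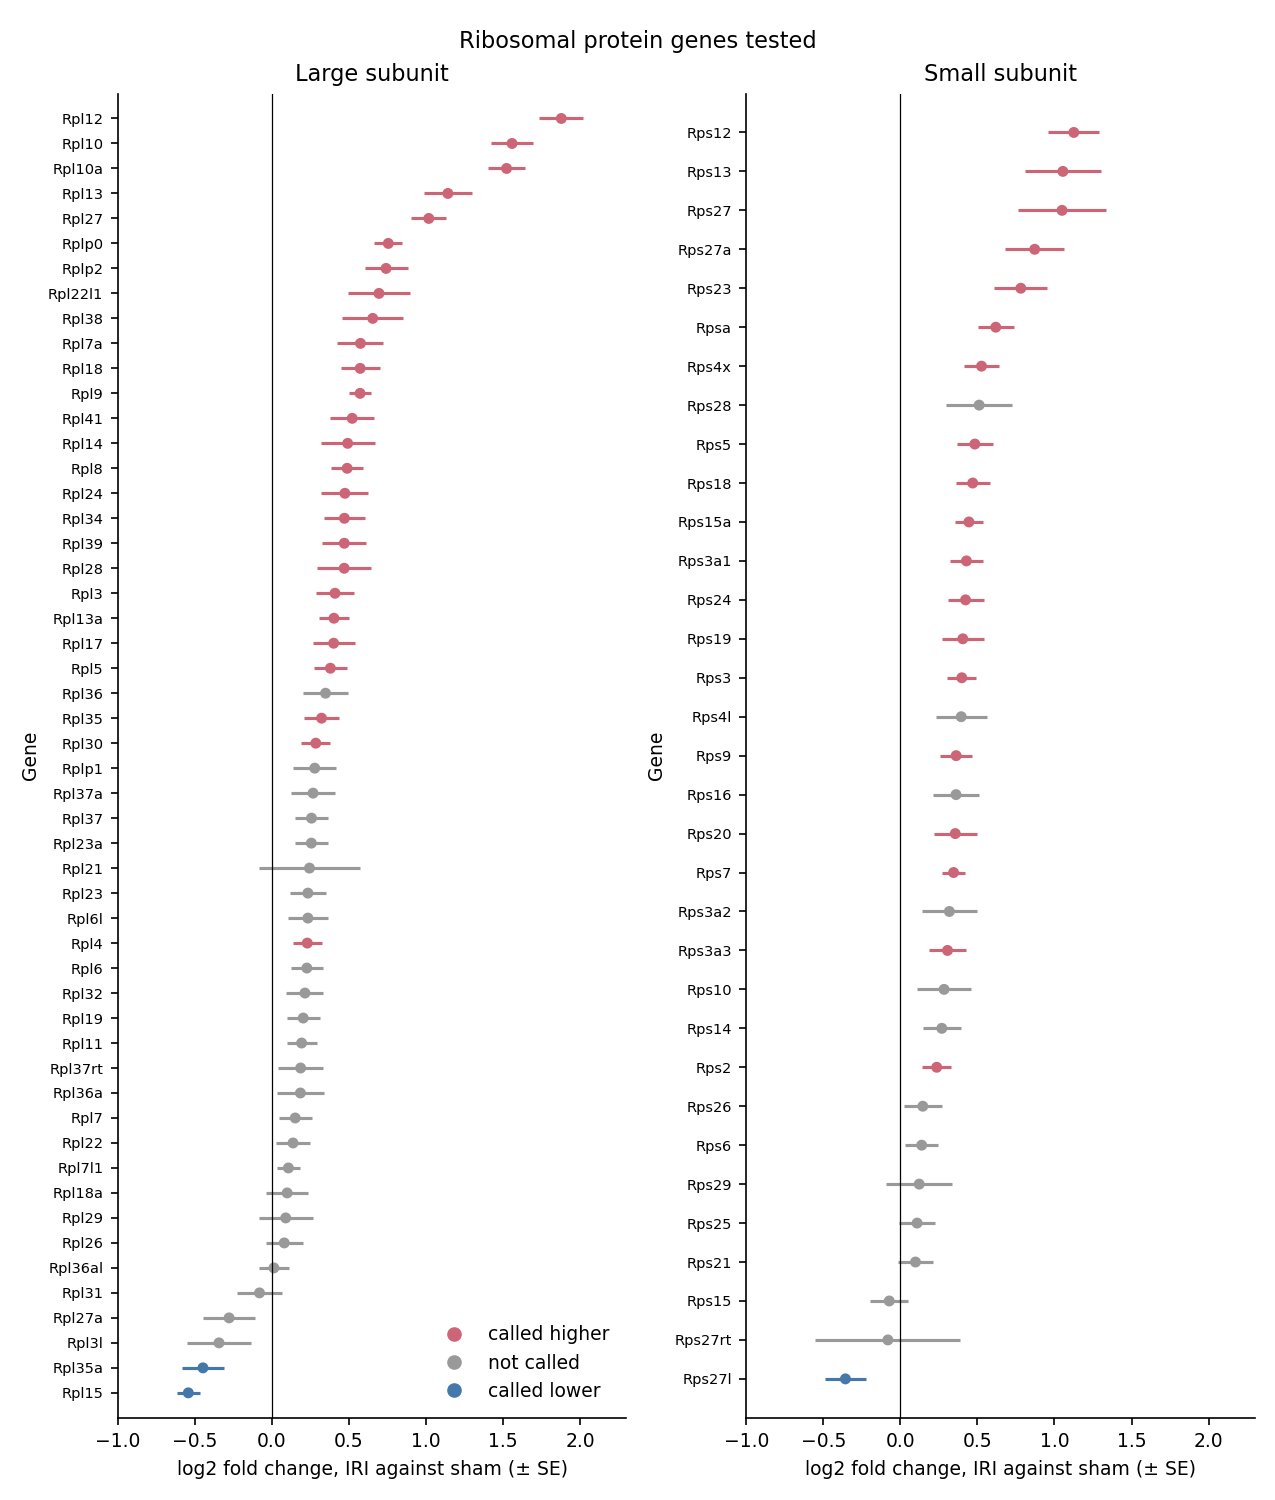
Log2 fold change of IRI against sham (x axis, ± SE, edgeR with TMM factors) for nearly all tested genes, ordered by size on the y axis, with large subunit genes on the left and small subunit genes on the right. Colour gives the call, and most points lie between 0 and 0.75.

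Rpl12, whose protein lies at the base of the stalk of the large subunit, showed the largest rise. Its levels were 1.87, 2.96, 2.24, 2.40 and 2.70 FPKM in sham and 10.0, 13.3, 9.73, 10.3 and 10.1 in IRI, here and below in the order of the replicates from 1 to 5. Every IRI library lay above every sham library, with IRI replicate 2 the highest. The log2 fold change was 1.88 ± 0.14 (SE, adjusted p = 6.30e-07 by edgeR). The gene lies at chr2:32851571-32855357 on the plus strand (GRCm39, here and below for genes, as in the deposited table).

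Rpl10, whose protein joins late in the maturation of the large subunit, had 6.88, 6.57, 9.02, 8.89 and 10.1 FPKM in sham and 27.2, 34.0, 23.1, 32.3 and 28.7 in IRI. Here too every IRI library exceeded every sham library, and the log2 fold change was 1.56 ± 0.14 (SE, adjusted p = 1.63e-06 by edgeR). It lies at chrX:73314418-73316741 on the plus strand. Rpl10a, a protein of the mobile L1 stalk at the exit of the transfer RNAs, is a different gene despite its name. It had 10.3, 8.54, 8.00, 9.57 and 11.3 FPKM in sham and 30.0, 39.4, 28.5, 34.8 and 30.5 in IRI, again without overlap, and a log2 fold change of 1.52 ± 0.12 (SE, adjusted p = 7.48e-07 by edgeR). It lies at chr17:28547445-28550007 on the plus strand. Rpl13 rose by 1.14 ± 0.16, from 4.84 ± 1.07 to 12.7 ± 1.71 FPKM, without overlap.

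In the small subunit Rps12 had 3.82, 4.80, 4.63, 5.49 and 5.41 FPKM in sham and 12.7, 17.1, 9.89, 11.03 and 11.96 in IRI. Its groups did not overlap and IRI replicate 2 was the highest, with a log2 fold change of 1.13 ± 0.16 (SE, adjusted p = 7.66e-05 by edgeR). It lies at chr10:23661081-23663173 on the minus strand. Rps13 rose by 1.05 ± 0.24, from 1.36 ± 0.288 to 3.33 ± 0.959 FPKM. The next largest rises were those of Rps27 (1.05 ± 0.29), Rpl27 (1.02 ± 0.11), Rps27a (0.87 ± 0.19), which is made as a fusion with ubiquitin, and Rps23 (0.78 ± 0.17), a protein of the decoding centre.

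All 10 genes of largest rise had low deposited levels in sham, with means of 1.36 to 9.54 FPKM, while the member of highest level, Rps15, had a sham mean of 653 ± 104 FPKM (SD, n = 5). By sequence most of them were also members whose messengers share much with other genes. In GENCODE M21 transcripts, the share of 50-base stretches of the messenger that also occur in a transcript of another gene was 49.4% to 98.6% in these 10, and had a median of 61.2% and a range of 0% to 98.6% over the 85 members with a coding transcript there. Of the 10, Rpl12 (49.4%) and Rps23 (51.7%) lay below this median. The levels of the 10 genes are uncertain. The sources used here do not say how the authors' counting placed reads of shared stretches. The exonic length in the deposited table was also longer than the messenger, by a median factor of 2.35 over members. Division by this length lowers FPKM and cancels in a fold change, but reads from outside the messenger can enter the counts. For Rps13 it was 2691 bases, the whole span of the gene, against a messenger of 589 bases. The part of such reads in the fold changes was not tested.

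Level and sharing were also set beside the fold change over all members. Spearman's rho of the fold change with mean FPKM was -0.20 (n = 88 genes) and with the shared stretches 0.23 (n = 83 genes), both over genes of the same 10 libraries, and the part of level or sharing in the large rises was not tested. Of 32 tested members with under 50% of their stretches shared, 16 were called higher and 1 lower (median 0.28). Of 51 with at least 50% shared, 30 were higher and 2 lower (median 0.40). Of 34 tested members with a mean over 100 FPKM, 15 were higher and 1 lower (median 0.26). Of 28 with a mean of 20 to 100 FPKM, 19 were higher and 1 lower (median 0.41). Of 26 under 20 FPKM, 13 were higher and 1 lower (median 0.39). Over all tested genes, 34.5% were called higher and 32.4% lower. When the counts of named pseudogenes were added to their parent genes, 49 members were called higher and 3 lower.

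**Figure D3:**
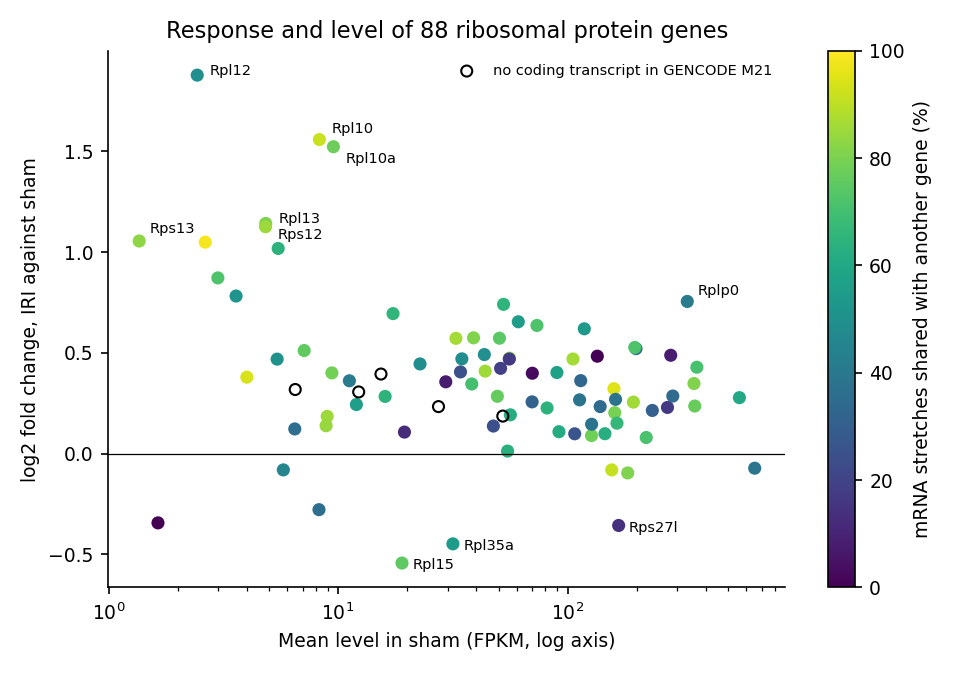
Log2 fold change of IRI against sham (y axis) against the mean sham level (FPKM, log x axis) of the 88 tested genes, coloured by the share of the messenger's 50-base stretches found in another gene (%), with open circles for genes that have no coding transcript in GENCODE M21. The fold changes above 0.75 lie at sham means under 10 FPKM except that of Rplp0, and genes of low level are also found at and below 0.

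The 10 largest rises, picked by fold change, held none of the members of highest level, which are given next. Rplp0, Rplp1 and Rplp2 encode the acidic stalk, which calls elongation factors to the ribosome. Rplp0 had 344, 291, 333, 354 and 339 FPKM in sham and 605, 651, 689.6, 687 and 706 in IRI, so that the groups stood far apart and each was narrow. Its log2 fold change was 0.75 ± 0.09 (SE, adjusted p = 1.70e-05 by edgeR), the largest among members over 100 FPKM, and it lies at chr5:115697526-115701786 on the plus strand. Rplp2 had 50.1, 52.0, 41.6, 54.8 and 64.5 FPKM in sham and 78.7, 130.5, 109, 112 and 95.2 in IRI, and its log2 fold change was 0.74 ± 0.14 (SE, adjusted p = 0.000524 by edgeR). Its groups did not overlap.

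Rplp1, the partner of Rplp2 in the stalk, was not called. It had 542, 528, 466, 556 and 709 FPKM in sham and 573, 927, 928, 852 and 782 in IRI. IRI replicate 1 lay below sham replicate 5 and only just above the other sham libraries, while the other 4 IRI libraries were above all sham libraries. The log2 fold change was 0.28 ± 0.14 (SE, adjusted p = 0.0981 by edgeR). It was called higher without IRI replicate 1 (0.36) or without sham replicate 5 (0.39). The difference in response between Rplp1 and its 2 stalk partners was not tested.

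Rpl8 and Rpl4 encode proteins that reach close to the site of peptide bond formation. Rpl8 had 281, 263, 242, 307 and 314 FPKM in sham and 402, 512, 492, 492 and 456 in IRI. Each IRI library exceeded each sham library, and the log2 fold change was 0.49 ± 0.10 (SE, adjusted p = 0.00135 by edgeR). Rpl4 did not overlap either, at 239 to 290.1 FPKM in sham and 340.0 to 415 in IRI. Its log2 fold change of 0.23 ± 0.09 (SE, adjusted p = 0.0484 by edgeR) was no longer called without any one of IRI replicates 2, 3, 4 and 5 or sham replicates 2 and 3. Rpl36, among the 5 members of highest level in the large subunit, stood at 289 to 474 FPKM in sham and 403 to 643 in IRI and was not called (log2 fold change 0.35 ± 0.15 (SE, adjusted p = 0.0519 by edgeR)), though it was called higher without IRI replicate 1 (0.41) or sham replicate 5 (0.49).

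Rps15 was the small subunit gene of highest level and showed no called change. It had 645, 594, 562, 636 and 829 FPKM in sham and 621, 778, 851, 762 and 691 in IRI, groups that overlapped widely, with sham replicate 5 above all IRI libraries but IRI replicate 3. The log2 fold change was -0.07 ± 0.12 (SE, adjusted p = 0.616 by edgeR), and its sign turned with library totals (0.18) and without sham replicate 5 (0.04). Rps3a1 rose by 0.43 ± 0.11, from 366 ± 30.4 to 587 ± 79.9 FPKM, without overlap, and Rps4x, the X-linked Rps4 gene, by 0.53 ± 0.11, from 196 ± 19.3 to 338 ± 52.6 FPKM.

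Rps2 was called near the threshold. Its protein lies near the messenger's entry site. The gene had 318 to 379.7 FPKM in sham and 429 to 536 in IRI without overlap, and a log2 fold change of 0.24 ± 0.10 (SE, adjusted p = 0.0453 by edgeR). The call was lost without any one of IRI replicates 2, 3, 4 and 5 or sham replicates 1, 2 and 3. Further genes of known role that rose in every fit with 1 library left out were Rpsa, the laminin receptor and small subunit protein (0.62 ± 0.12), Rps19, known from Diamond-Blackfan anaemia (0.40 ± 0.13), and Rpl38, known for its part in the translation of Hox messengers (0.65 ± 0.20). Rps6, the substrate of the S6 kinases, was not called (0.14 ± 0.11), although its FPKM groups did not overlap (7.69 to 9.93 in sham and 10.6 to 12.7 in IRI).

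Rpl5 and Rpl11 bind 5S ribosomal RNA and, when free, Mdm2, the ubiquitin ligase of p53. Rpl5 had 3.88, 3.35, 3.93, 4.62 and 4.24 FPKM in sham and 5.22, 7.02, 6.68, 6.09 and 6.00 in IRI. Its groups did not overlap and its log2 fold change was 0.38 ± 0.11 (SE, adjusted p = 0.00835 by edgeR), while 93.8% of its 50-base stretches occur in other genes. Rpl11 had 50.4, 51.2, 56.0, 57.7 and 66.1 FPKM in sham and 61.4, 77.7, 84.0, 82.0 and 78.8 in IRI, where IRI replicate 1 stood apart below the others and within the sham range. It was not called (log2 fold change 0.19 ± 0.10 (SE, adjusted p = 0.0997 by edgeR)), and was called higher without IRI replicate 1 (0.24) or sham replicate 5 (0.27).

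Against the general rise, 3 members were called lower. Rpl15, a core protein of the large subunit, had 18.5, 18.2, 19.2, 19.1 and 19.9 FPKM in sham and 15.1, 15.1, 16.1, 14.3 and 16.7 in IRI. Every IRI library lay below every sham library and both groups were narrow, the only member without overlap in this direction. The log2 fold change was -0.54 ± 0.07 (SE, adjusted p = 3.84e-05 by edgeR), the call held without each library in turn and with library totals (-0.29), and 75.2% of its stretches are shared. The gene lies at chr14:4198305-4201873 on the plus strand.

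Rpl35a, known from Diamond-Blackfan anaemia, had 28.3, 29.8, 26.4, 32.4 and 41.3 FPKM in sham and 23.3, 34.6, 29.0, 27.1 and 24.2 in IRI. The groups overlapped in FPKM, with IRI replicate 2 above all sham libraries but sham replicate 5. Its log2 fold change was -0.45 ± 0.14 (SE, adjusted p = 0.0127 by edgeR), and it was not called with library totals (-0.19). It lies at chr16:32876823-32880559 on the plus strand. Rps27l is described with its paralogues below.

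**Figure D4:**
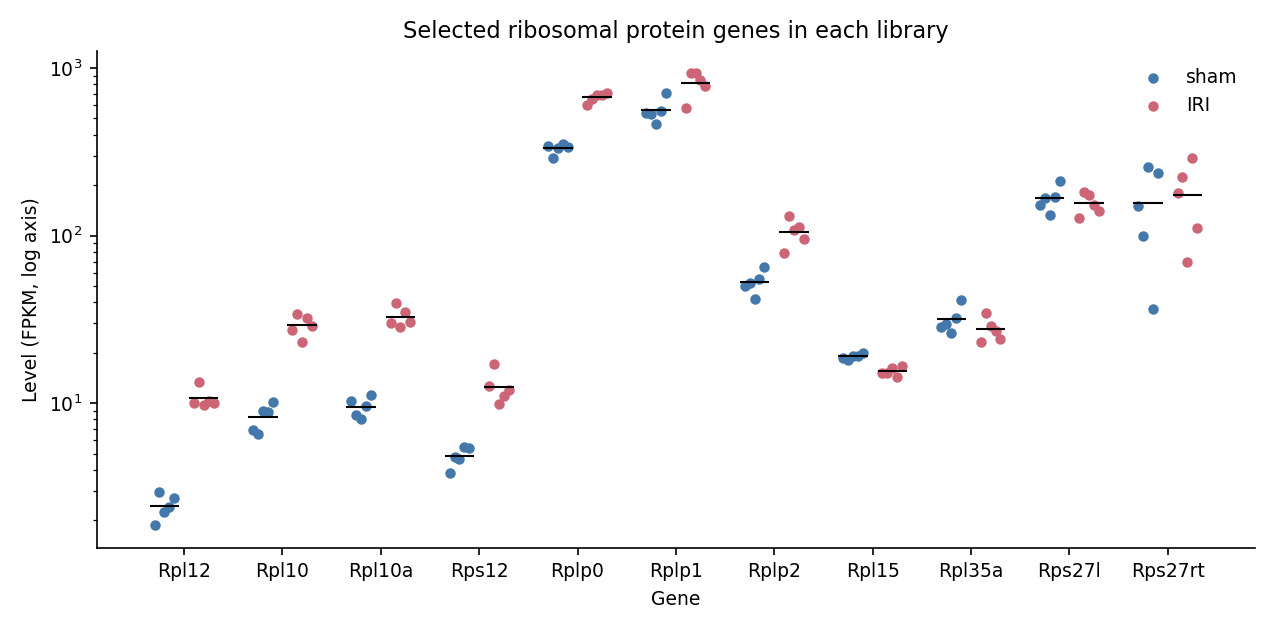
Level of 11 ribosomal protein genes in each of the 10 libraries (FPKM, log y axis), 1 point per library in order of replicate and a line at the group mean (n = 5). Rpl12, Rpl10, Rpl10a, Rps12, Rplp0 and Rplp2 lie higher in every IRI library, Rpl15 lies lower in every one, and Rps27rt spans 36.3 to 289 FPKM with no separation of the groups.

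Several ribosomal proteins exist as pairs of paralogues. Rpl22l1, an alternative to Rpl22, had 13.1, 20.4, 12.7, 20.5 and 20.1 FPKM in sham and 29.3, 49.98, 30.1, 30.3 and 28.1 in IRI. The groups did not overlap, IRI replicate 2 was far above the rest, and the log2 fold change was 0.69 ± 0.20 (SE, adjusted p = 0.00836 by edgeR). Rpl22 itself had 45.9, 46.9, 40.9, 49.1 and 54.5 FPKM in sham and 46.9, 66.3, 70.0, 69.0 and 59.9 in IRI, overlapping through IRI replicate 1, and was not called (log2 fold change 0.14 ± 0.11 (SE, adjusted p = 0.293 by edgeR)). Rpl22 remained the more abundant of the pair in FPKM in every library. The difference between the responses of the paralogues was not tested, here or in the pairs below.

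Rps27 has a near-identical retrocopy, Rps27rt, and a paralogue, Rps27l, which is known as a p53 target. Rps27 had 1.48, 2.47, 2.40, 3.78 and 3.06 FPKM in sham and 6.31, 9.99, 3.93, 5.40 and 6.95 in IRI, and was called higher (log2 fold change 1.05 ± 0.29 (SE, adjusted p = 0.00612 by edgeR)), but 98.6% of its stretches occur in other genes. Rps27l had 153, 168, 132, 170.5 and 211 FPKM in sham and 128, 182, 174, 153 and 141 in IRI. These FPKM ranges overlapped almost wholly, and the call, lower by a log2 fold change of -0.36 ± 0.13 (SE, adjusted p = 0.0311 by edgeR), was lost with library totals (-0.10) and without any one of IRI replicates 1, 4 and 5 or sham replicates 2, 4 and 5. It lies at chr9:66853368-66856798 on the plus strand.

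Rps27rt varied between libraries of one group more than the other members with a mean of at least 50 FPKM did. Members of lower level were left out of this comparison. It had 151, 98.7, 255, 36.3 and 238 FPKM in sham and 178, 225, 69.1, 289 and 110.2 in IRI. Low and high libraries were found in both groups, with sham replicate 4 and IRI replicate 3 the lowest. Its coefficient of variation was 59.3% in sham and 50.4% in IRI, against 5.60% to 31.8% and 6.07% to 19.0% in 50 other members with a mean of at least 50 FPKM. The log2 fold change was -0.08 ± 0.47 (SE, adjusted p = 0.887 by edgeR), and its sign turned with library totals (0.16) and without sham replicate 3 (0.17), sham replicate 5 (0.14), IRI replicate 3 (0.12) or IRI replicate 5 (0.05). Its single exon lies at chr9:114811434-114811807 on the minus strand, and 91.1% of its 50-base stretches occur in other genes.

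The other copies stood mostly with their standard partner or were not called. Rps4l had 12.6 to 20.4 FPKM in sham and 15.99 to 26.6 in IRI and was not called (log2 fold change 0.39 ± 0.17 (SE, adjusted p = 0.0521 by edgeR)), with IRI replicate 3 at 15.99 and the other IRI libraries at 24.9 to 26.6, and it was called higher without IRI replicate 3 (0.51) or sham replicate 3 (0.52). Of the copies of Rps3a1, Rps3a3 was called higher (log2 fold change 0.31 ± 0.12 (SE, adjusted p = 0.0363 by edgeR)), a call lost without IRI replicate 3 or 4 or sham replicate 2, 4 or 5. Rps3a2 was not called (0.32 ± 0.18 (SE, adjusted p = 0.132 by edgeR)), and was called higher without sham replicate 4 (0.48).

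Rpl3, which lies near the site of peptide bond formation, was at 43.7 ± 5.91 FPKM in sham and 68.9 ± 8.70 in IRI without overlap, and rose by 0.41 ± 0.12. Its muscle paralogue Rpl3l stood at 1.28 to 2.00 FPKM in sham and 1.21 to 1.85 in IRI and was not called (-0.34 ± 0.21). Rpl7l1 (0.11 ± 0.07) and Rpl7 (0.15 ± 0.11) were not called, nor were Rpl36a (0.18 ± 0.15) and its retrocopy Rpl36al (0.01 ± 0.10), whose sign turned with DESeq2 (-0.01). Rpl39, a small protein lining the exit tunnel, was called higher (log2 fold change 0.47 ± 0.14 (SE, adjusted p = 0.0116 by edgeR)), and its paralogue Rpl39l was below the filter.

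Since most members moved up together, each was also compared with the others. In this second fit the libraries were scaled by the geometric mean of the 51 members with a mean of at least 50 FPKM, so that a common shift of the set drops out. Over all genes it called 16.7% higher and 42.3% lower (59% in either direction), since the whole scale moved. Of the 88 members, 15 were called higher than the set (8 large, 7 small) and 9 lower (6 large, 3 small), and the other 64 were not called. The scaling itself puts members on both sides of their mean, and the share called higher, 17% of members, was near that of all genes, so these counts are not a result about the members as a set.

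The 15 above the set included Rpl12 (1.57 ± 0.16, adjusted p = 3.67e-06 by edgeR), Rpl10 (1.26), Rpl10a (1.22), Rpl13 (0.84), Rps12 (0.82), Rplp0 (0.44) and Rplp2 (0.43), all as log2 change against the set. The 9 below it included Rpl15 (-0.85 ± 0.12, adjusted p = 6.28e-05 by edgeR), Rpl35a (-0.75), Rps27l (-0.66), Rpl3l (-0.65), Rpl27a (-0.56), Rps15 (-0.38), Rpl31 (-0.38) and Rpl36al (-0.29). With each library left out in turn, 7 of the 9 kept their call below the set and 9 of the 15 kept theirs above it in all 10 fits. Below the set, Rpl3l lost its call without IRI replicate 3, 4 or 5 or sham replicate 3 or 4, and Rpl31 without IRI replicate 2, 4 or 5 or sham replicate 1 or 4. Above it, Rps13 lost its call without IRI replicate 1 or sham replicate 5, Rps23 without IRI replicate 2 or sham replicate 5, and Rps27 without IRI replicate 1, 2 or 5 or any sham replicate but 4. Rpsa and Rpl18 kept theirs in 6 and 2 of the 10 fits.

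Members with a C and T run of at least 8 bases in a start window, before or after the start, were called higher in 17 of 24 tested and lower in 2 (median log2 fold change 0.46). Those with a shorter run were higher in 20 of 40 and lower in 1 (median 0.31). The share called higher was 53.4% over all 88 tested members and 34.5% over all tested genes. Both kinds are among the largest rises and the falls: Rps12 and Rps27 have longest runs of 11 and 9 bases and Rpl12 and Rpl10 of 7 and 3, while Rpl15 and Rpl35a have 17 and 13 and Rps27l 7. The difference between the kinds was not tested.

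Other genes of the ribosome and its making were taken from lists chosen with earlier results of these data known. The background for each list is the share over all tested genes, 34.5% called higher and 32.4% lower. Rack1, a scaffold on the small subunit, stood at 61.8 to 76.0 FPKM in sham and 87.1 to 126 in IRI without overlap and rose by 0.42 ± 0.10. Fau, a fusion gene of a ubiquitin-like protein with a ribosomal protein, was not called (0.29 ± 0.16). Of 58 ribosome biogenesis factors, 45 were called higher and 3 lower (median 0.63), among them Eif6, which keeps the new large subunit from joining early (1.92 ± 0.10), Las1l, a nuclease of ribosomal RNA processing (1.46 ± 0.16), and Rrp12 (1.44 ± 0.14). Of 11 tested genes of RNA polymerase I and its factors 8 were higher and 0 lower (median 0.33), led by Taf1d (1.43 ± 0.12) and Rrn3, its initiation factor (0.79 ± 0.08).

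All 8 hosts of small nucleolar RNAs, many of which are TOP transcripts with little coding content, were called higher (median 1.34), led by Snhg5 (2.12 ± 0.21) and Snhg1 (1.77 ± 0.13). Elongation factors and further TOP genes gave 6 higher (40%) and 1 lower of 15 (median 0.04), a share higher near the 34.5% of all tested genes. Their largest rises were those of Hnrnpa1 (0.96 ± 0.07), Pabpc1 (0.61 ± 0.09) and Eef1g (0.42 ± 0.11). Initiation factors gave 19 higher and 3 lower of 32 (median 0.31), led by Eif4a1, the helicase (1.24 ± 0.11), and Eif1 (0.93 ± 0.17). Of 6 tested dedicated chaperones of ribosomal proteins, Grwd1, which escorts Rpl3, was higher (0.98 ± 0.09), Aamp (-0.52 ± 0.09) and Bccip (-0.37 ± 0.08) were lower, and 3 were not called.

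The list of mTORC1 and TOP control genes gave 7 higher (33.3%) and 6 lower of 21 (median 0.01). This share higher was near the 34.5% of all tested genes, so the counts are not a result about the list. Myc, which drives ribosome synthesis, rose by 3.39 ± 0.22, and Eif4ebp1, a repressor of cap-dependent initiation, by 2.70 ± 0.13. Mtor, the kinase itself, fell by 1.45 on the log2 scale (SE 0.14), from 24.9 ± 1.99 to 10.8 ± 2.19 FPKM (SD, n = 5 each).

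Genes named for the ribosomal proteins of mitochondria went the other way from those of the cytosol in their counts. They were taken by symbol alone, as Mrpl or Mrps followed by a number. Not every such gene need encode a protein of the ribosome. Of 48 tested genes of the mitochondrial large subunit 3 were called higher and 38 lower (median -0.42), and of 29 of the small subunit 3 higher and 23 lower (median -0.47). Mrpl34 (-1.19 ± 0.14), Mrpl42 (-1.16 ± 0.13) and Mrps21 (-1.30 ± 0.14) were among those that fell, and Mrpl33 (1.14 ± 0.18) and Mrps6 (1.46 ± 0.23) among those that rose. The difference between the cytosolic and mitochondrial sets was not tested.

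**Figure D5:**
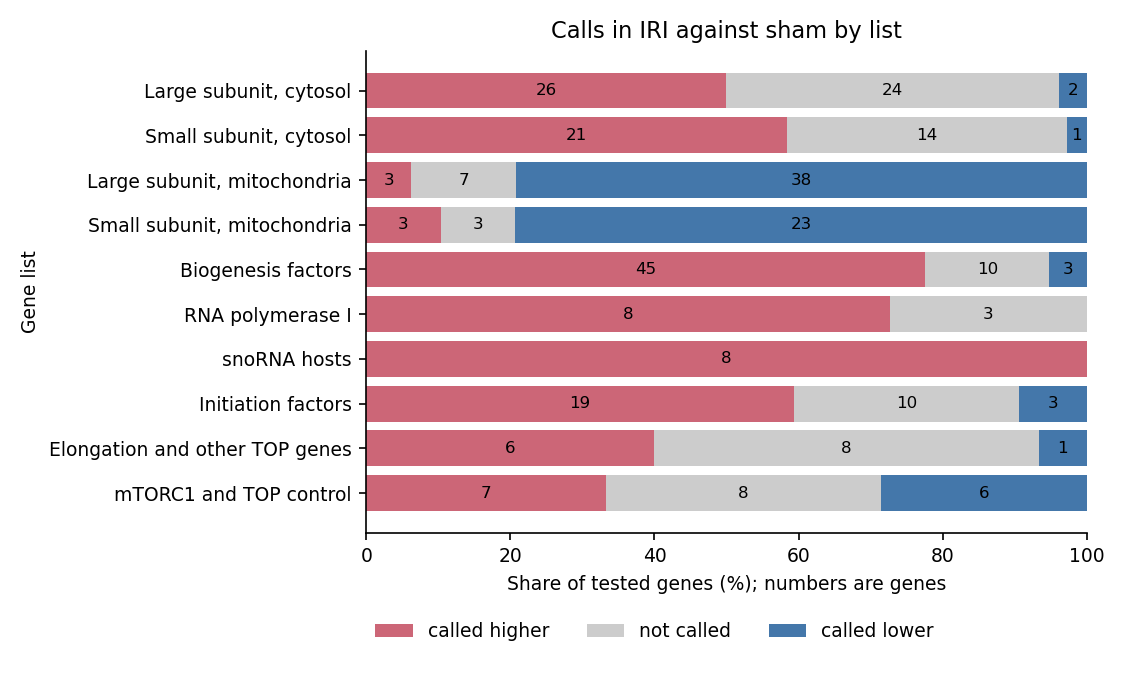
Share of tested genes (%, x axis) called higher, not called or called lower in IRI by edgeR, for each gene list on the y axis, with the number of genes in each piece. Cytosolic subunits show 26 of 52 and 21 of 36 genes higher, and mitochondrial subunits 38 of 48 and 23 of 29 genes lower. Over all tested genes 34.5% were called higher and 32.4% lower.

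Markers of other cells were summed in the same way. Neutrophil markers were at 1.08 to 3.27 FPKM in sham and 23.2 to 107 in IRI (5 of 5 tested higher), and lymphocyte markers at 11.99 to 18.6 and 3.85 to 6.64 (2 of 10 tested, both lower). Red cell markers were at 104 to 178 FPKM in sham and 179 to 336 in IRI (3 of 4 higher). The sums of the other lists overlapped between the groups: macrophage markers 34.2 to 54.3 and 42.5 to 92.4 (2 higher, 1 lower and 3 not called), thick ascending limb markers 783 to 1727 and 1431 to 2623 (2 higher and 4 lower), and collecting duct markers 249 to 534 and 296 to 678 (1 higher, 1 lower and 4 not called). Of the thick ascending limb sums, Umod alone made up 494 to 1205 FPKM in sham and 1330 to 2417 in IRI. The part of these cells in the values of the ribosomal protein genes was not tested.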

How the data were processed

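Poly(A)-selected RNA of mouse kidney was sequenced in 10 libraries as paired reads of 150 bases, per the labels' protocols. The authors deposited 1 table that holds, for each gene and library, a whole-number count and an FPKM value. The submitters' processing notes name the build GRCm39 and the tools HTSeq 0.6.1, HISAT2 2.0.1 and cutadapt 1.9.1. Their settings are not given in the sources used here. Nor is the use of strand, so overlapping genes of opposite strand may share reads. Recomputed from the counts, exonic lengths and library totals, all deposited FPKM values were matched within 0.005 units or 0.1%. Symbols were matched by identifier for 52083 of 55359 genes.

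Counts of genes that reached 1 FPKM in at least 5 libraries were tested with edgeR 4.0.16 (R 4.3.3; quasi-likelihood, TMM factors) and adjusted over 13324 genes by the Benjamini-Hochberg method. Standard errors were taken as log2 fold change over the root of the F statistic. The script was tested on simulated data. A second fit scaled each library by the geometric mean of members with a mean of at least 50 FPKM. No 2 libraries of a group agreed within sampling noise (chi-square test of counts). Precision is limited by the depth of 13147899 to 18603272 counts per library. Shared 50-base stretches came from GENCODE M21 transcripts (build GRCm38), one coding transcript per gene, and start windows from RefSeq (GRCm38.p6), for which no coordinate was converted. A run or motif in a window is a description, not a site.

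The members, lists and tests were chosen with earlier results of these data known. Named members were the 5 of highest level in each subunit, the 6 called members of largest rise and of largest fall, the 4 and 4 of largest change in the second fit, the stalk, 5S and paralogue lists, Fau and Rack1, and up to 3 called members of each other list. The results of a few genes that the rule takes are not reported here. Rpl27, Rps27a, Rps23, Rpsa, Rps19, Rpl38, Rps6 and the remaining members listed from the second fit fall outside that rule and were chosen after their values were seen. Alternatives were library totals, DESeq2 1.42.0, limma 3.58.1 on log2(FPKM + 1) and log2(FPKM + 0.1), other filters, a block for the replicate number, another scaling over the members, shares without mitochondrial counts, and leaving out each library. Adding pseudogene counts to the parent gene, and keeping members with under 50% of stretches shared, were alternatives chosen after seeing the data.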

Additional observations from a re-analysis of the deposited data

Results flagged for a closer look

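In groups of 5 libraries, a value was marked where its gap to the nearest other value, divided by the range of the group, exceeded Dixon's 95% critical value of 0.71. Of 84 groups examined, 7 were marked, where chance marks about 1 in 20 groups. In IRI replicate 2, Rpl12 stood at 13.3 FPKM (other IRI libraries 9.73 to 10.3) and Rpl22l1 at 49.98 FPKM (28.1 to 30.3), both above the rest. In IRI replicate 1, Rpl11 stood at 61.4 FPKM, below the other IRI libraries (77.7 to 84.0). In IRI replicate 3, Rps4l stood at 15.99 FPKM, below the other IRI libraries (24.9 to 26.6). In sham replicate 5, Rpl39 stood at 74.2 FPKM, above the other sham libraries (46.7 to 53.2). In sham replicate 1, Rpl7l1 stood at 21.7 FPKM (other sham libraries 18.4 to 19.1) and Rpl39l, which is close to 0 in every library, at 0.32 FPKM (0 to 0.07).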

How the results depend on the processing

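The scale set the counts most. Against 47 members higher and 3 lower with TMM (large subunit 26 higher, medians 0.28 and 0.36 in the large and small subunits), library totals gave 76 higher and 1 lower, 45 in the large subunit, and medians of 0.54 and 0.62. Limma on log2(FPKM + 1), also on library totals, gave 76, 1 and 45 with medians of 0.53 and 0.60, and on log2(FPKM + 0.1) it gave 75, 1 and 44 with 0.54 and 0.62. DESeq2 gave 48 higher and 3 lower, and pseudogene rows added to their parent 49 and 3. With no filter 46 of 90 members tested were higher and 2 lower (all genes 19.3% higher), and with a filter of 5 FPKM 54 of 85 higher and 3 lower (all genes 38.3% higher). Keeping members with under 50% of stretches shared gave 16 higher of 32. Without mitochondrial counts the mean shares were 1.44% in sham and 2.17% in IRI. Leaving out each library in turn gave 39 to 58 members higher (22 to 35 large, 17 to 23 small) and 2 to 3 lower, medians of 0.24 to 0.39 (large) and 0.34 to 0.43 (small), 11 to 14 members above and 7 to 10 below the set, and mean shares of 1.24% to 1.32% in sham and 1.89% to 2.03% in IRI. The sign turned for Rpl36al (0.01) with DESeq2 (-0.01) and without IRI replicate 2 or 4 or sham replicate 3 (-0.0385 to 0.0877 over the 10 fits that leave out a library). It turned for Rps15 (-0.07) with library totals (0.18), both limma fits (0.19) and without sham replicate 5 (-0.126 to 0.0407 over the 10 fits). It turned for Rps27rt (-0.08) with library totals (0.16), limma with 0.1 (0.29) or 1 (0.28) added, and without IRI replicate 3 or 5 or sham replicate 3 or 5 (-0.321 to 0.172 over the 10 fits). Libraries with the same replicate number did not deviate together (correlations -0.246 to 0.057, and 0 of 5 correlated best with its own number), so the numbers were not taken as pairs. With the replicate number as a block, 40 members were higher and 2 lower, and 10 lay above and 5 below the set in place of 15 and 9. Where a cause of these shifts is not in the alternative's own construction, the cause was not tested.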
